A study of Mus musculus with 58 samples.

Results

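The genes described here encode the muscle sodium channel Scn4a, the sodium pump beta subunits Atp1b1, Atp1b2 and Atp1b3, their muscle relative Atp1b4, and the pump regulator Fxyd1. The members were chosen by gene symbol as 6 genes, and every probe set annotated to one of them was used. Of these, 5 genes had 10 probe sets in all, out of 45037 probe sets on the arrays, 34945 of which carried exactly 1 symbol and together named 18193 genes. Scn4a was not analysed here, so the values below are those of the sodium pump. Atp1b1 had 5 probe sets, Atp1b2 had 2, and Atp1b3, Atp1b4 and Fxyd1 had 1 each.

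Messenger RNA of quadriceps was profiled on Affymetrix arrays in 34 male mice of 7 groups, in 3 experiments. Experiment 1 held 6 mice of the CUGexp transgenic Line 20b, 6 of the CUGexp transgenic Line 41 and 6 FVB wild-type mice, all 6 months old and on the FVB background. CUGexp mice carry, in a human skeletal actin transgene, the expanded CUG repeat RNA that models myotonic dystrophy, and each line stands for a single transgenic line. Experiment 2 held 3 Clcn1-null mice, which lack the muscle chloride channel and are myotonic, and 3 mice of their background strain, labelled BALB wild type, at 3 months. Experiment 3 held 5 Mbnl1 knockout mice on the FVB background, which lack a splicing regulator bound by CUG repeats, and 5 FVB wild-type mice, also at 3 months. No mouse was treated, and the null alleles are constitutive, so every cell type of the muscle carries them. The labels do not say more about the alleles.

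The sodium pump moves sodium out of the fibre and potassium in, and so restores the gradients that each action potential runs down. It is built from a catalytic subunit and a glycosylated beta subunit, which brings the enzyme to the membrane, and Fxyd proteins tune its affinity for sodium. In rat muscle the Atp1b1 protein prevails in oxidative fibres and the Atp1b2 protein in glycolytic ones. Atp1b4 is a pump subunit in other vertebrates, but in placental mammals its product lies in the inner nuclear membrane of muscle cells and is no longer part of the pump.

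The start regions of 3 members are shown because the members behave differently in the data below: Atp1b4 and Fxyd1 rose in both CUGexp lines, whereas Atp1b1 was called in the Clcn1-null mice alone. Each is the C57BL/6J reference stretch from RefSeq (GRCm38.p6) that runs from 250 bases before to 50 bases after the annotated gene start, in the direction of transcription. The Atp1b4 region lies at chrX:38315872-38316171 on the plus strand, that of Fxyd1 at chr7:31054804-31055103 on the minus strand and that of Atp1b1 at chr1:164458306-164458605 on the minus strand. Capitals mark matches to the motifs searched on both strands.
Atp1b4: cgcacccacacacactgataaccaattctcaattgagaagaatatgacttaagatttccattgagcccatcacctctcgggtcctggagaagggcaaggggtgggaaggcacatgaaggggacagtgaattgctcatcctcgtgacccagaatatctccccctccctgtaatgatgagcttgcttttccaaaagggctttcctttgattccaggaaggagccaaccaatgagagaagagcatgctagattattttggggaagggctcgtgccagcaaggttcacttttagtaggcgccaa
Fxyd1: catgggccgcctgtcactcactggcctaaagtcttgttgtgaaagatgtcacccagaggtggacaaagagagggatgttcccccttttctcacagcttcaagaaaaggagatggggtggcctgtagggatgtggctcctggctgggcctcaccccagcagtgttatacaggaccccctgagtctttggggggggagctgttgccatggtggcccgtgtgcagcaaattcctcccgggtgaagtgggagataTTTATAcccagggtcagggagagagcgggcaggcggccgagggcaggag
Atp1b1: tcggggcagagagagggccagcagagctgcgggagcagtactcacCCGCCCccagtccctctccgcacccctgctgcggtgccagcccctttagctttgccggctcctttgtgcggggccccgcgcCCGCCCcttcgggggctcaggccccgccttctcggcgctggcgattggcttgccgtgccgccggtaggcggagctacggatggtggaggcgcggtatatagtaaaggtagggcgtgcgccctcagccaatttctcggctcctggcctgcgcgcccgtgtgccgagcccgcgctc
The motifs were the E-box CAGCTG bound by muscle basic helix-loop-helix factors, the TATA box core TATAAA, the GC box GGGCGG and the consensus of MEF2, which can overlap the TATA core. The Atp1b4 stretch held none of these letters, and with 49% G and C it was below the 52.7% median of 32851 mouse start regions of 300 bases. The Fxyd1 stretch (58.7% G and C) held 1 TATA core on the opposite strand, beginning at base 2 of the transcribed part. The Atp1b1 stretch (71% G and C) held 2 GC boxes, beginning 205 and 124 bases before the start, both on the opposite strand. Among the 32851 regions, 16.3% held CAGCTG, 13.6% TATAAA, 35.7% GGGCGG and 3.19% the MEF2 consensus. The Atp1b3 table entry gave 2 starts, and Atp1b2 is named only.

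Values are log2 of the array intensity, so a difference of 1 is a change of 2-fold, and a probe set was tested where enough mice reached 5 on that scale, which is 32 in intensity. Each mutant group was set against the wild-type mice of its own experiment with limma, and a probe set was called at an adjusted p under 0.05 over all probe sets tested. Array medians differed by experiment, and the labels do not say whether the experiments were normalised together, so levels are compared only within one, and the probes of different genes are not set against each other. The labels do not say whether littermates were used, and p-values measure the spread between these mice.

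All 15 skeletal muscle genes on the list were read above an intensity of 32 in every mouse. The 12 endothelial and mural genes also reached it, apart from 1 gene in Mbnl1-null mouse 1. This reading therefore does not single out the tissue, which is given by the labels. The Clcn1 probe set was lower in the Clcn1-null mice (-1.42, SE 0.27, adjusted p = 0.0428) and the brightest Mbnl1 probe set in the Mbnl1-null mice (-0.73, SE 0.06, adjusted p = 4.83e-05). Whether these probes lie in the deleted stretches is not stated in the labels. Wild-type mice 1 and 2 of experiment 1 stood apart from the other 4. Their summed intensity over 10 slow fibre markers was 24796 and 8554, against 79964 to 120020 in the other 4, and over 8 adipocyte markers 152070 and 166780, against 73299 to 86801. Results of the member probe sets against these wild-type mice are therefore given with and without them where that changes a call. For the genes of the other lists and the markers, calls in either CUGexp line are given with all the wild-type mice only. Whether those calls hold without mice 1 and 2 is not shown here.

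Of the 9 member probe sets tested in Line 20b against wild type, 3 were called higher and 1 lower, beside 16.8% of all 27330 probe sets called in either direction, 7.35% higher and 9.49% lower. In Line 41 against the same wild-type mice, limma called 3 of 9 higher and 0 lower (0 lower also at an unadjusted p under 0.05), beside 8.47% of all (3.88% higher, 4.59% lower). Once wild-type mice 1 and 2 were dropped, 1 of 9 was called in Line 41, beside 5.2% of all 27579 probe sets. In Line 20b the same step took away the call of Atp1b3, and 13.8% of all probe sets were called. Because both comparisons use the same wild-type mice, their changes are not independent of each other. In Line 20b against Line 41, 2 of 9 were called higher, beside 5.84% of all (2.58% higher, 3.26% lower). In the Clcn1-null mice 3 of 10 were called higher and 1 lower, beside 4.32% of 25944 probe sets (1.78% higher, 2.54% lower). In the Mbnl1-null mice 1 of 9 was called higher, beside 16.2% of 16229 (7.28% higher, 8.92% lower). The median log2 change of the tested member probe sets was -0.05 for Line 20b, 0.09 for Line 41, 0.53 for Clcn1-null and 0.42 for Mbnl1-null mice, and that of all tested probe sets lay between -0.02 and 0.03 in these comparisons. Which members moved differed by comparison, as the plot of changes shows and as described by role in what follows.

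**Figure D1:**
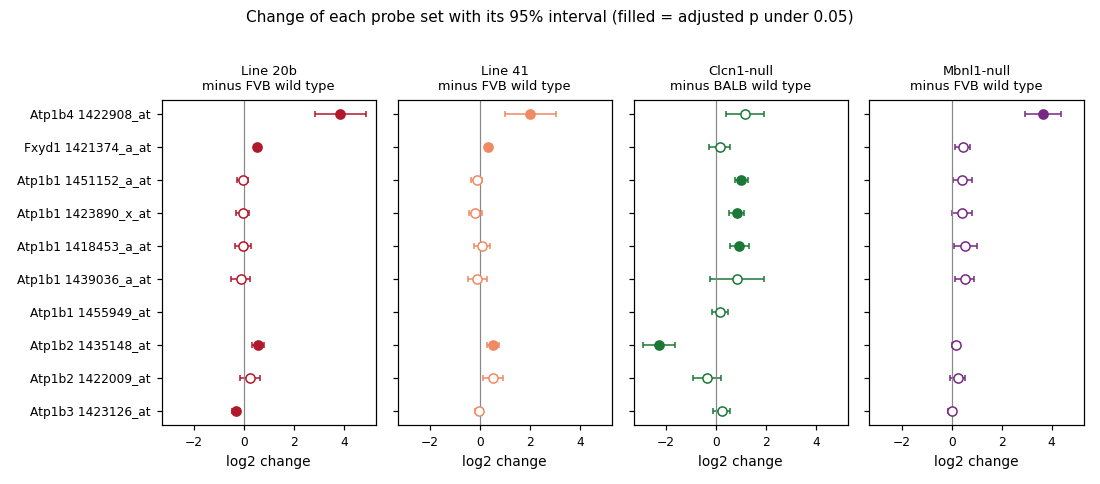
Log2 change of each member probe set with its 95% interval, mutant minus wild type of the same experiment, in 4 panels for Line 20b, Line 41, Clcn1-null and Mbnl1-null mice; filled points have an adjusted p under 0.05. Atp1b4 lies farthest to the right in Line 20b (3.86) and Mbnl1-null mice (3.65), and one Atp1b2 probe set lies farthest to the left in Clcn1-null mice (-2.28).

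Among the beta subunits, Atp1b1, the most widely used partner of the catalytic subunit, was higher in the muscle without the chloride channel. Its probe set 1451152_a_at read 13.78, 13.98 and 13.76 in the Clcn1-null mice, against 12.80, 12.80 and 12.88 in BALB wild type. The groups did not overlap, and the change was 1.02 (SE 0.11), which is 2.02-fold, with adjusted p = 0.0101. The probe set 1418453_a_at read 12.72, 12.95 and 12.74 in the Clcn1-null mice, against 11.63, 11.90 and 12.05 in wild type, a change of 0.94 (SE 0.15, adjusted p = 0.0284). The probe set 1423890_x_at read 13.88, 14.08 and 13.77 in the Clcn1-null mice, against 12.99, 13.03 and 13.21 in wild type, a change of 0.83 (SE 0.13, adjusted p = 0.0251). All 3 therefore stood higher in every null mouse than in any wild-type mouse. They read the same gene in the same mice, so they are not independent of each other. The share of all tested probe sets that separated in this way is not given here.

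The other 2 Atp1b1 probe sets did not pass. The one that read 13.87, 14.26 and 12.45 in the Clcn1-null mice, against 12.69, 12.57 and 12.77 in wild type (1439036_a_at), had null mouse 3 below all wild-type mice, and its change was 0.85 (SE 0.45, adjusted p = 0.372). Without that mouse the change was 1.39 and the adjusted p 0.0116. The dim probe set 1455949_at read 7.72 to 8.03 in the null mice and 7.71 to 7.73 in wild type (0.17, adjusted p = 0.527), and it was under an intensity of 32 in every mouse of experiments 1 and 3. With 3 mice a group, single mice decided the calls. Without BALB wild-type mouse 1 the adjusted p of 1451152_a_at was 0.0750 and without mouse 3 it was 0.0680, and the calls of 1418453_a_at and 1423890_x_at were lost when any one mouse other than null mouse 3 was left out.

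In the CUGexp lines no Atp1b1 probe set was called. At 1451152_a_at the lowest, median and highest values were 11.51, 11.69 and 11.78 in Line 20b, 11.30, 11.64 and 11.89 in Line 41, and 11.31, 11.79 and 11.98 in wild type. The groups overlapped, and the wild-type mice and Line 41 were spread more widely than Line 20b. The changes of the 4 tested probe sets ran from -0.14 to -0.05 in Line 20b (adjusted p 0.667 to 0.877) and from -0.19 to 0.09 in Line 41 (adjusted p 0.402 to 0.799). The 95% interval of the change at 1451152_a_at was -0.28 to 0.17 in Line 20b and -0.35 to 0.10 in Line 41.

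In the Mbnl1-null mice Atp1b1 was higher on average without passing the test, and a single mouse decided this. The probe set 1451152_a_at read 11.09, 12.16, 12.06, 11.80 and 12.00 in the 5 Mbnl1-null mice, against 11.27, 11.61, 11.32, 11.40 and 11.40 in FVB wild type. Mouse 1 of the null group was below every wild-type mouse, and the other 4 were above all of them. The changes of the 4 tested probe sets were 0.41 to 0.55, with adjusted p from 0.0644 to 0.157. Without null mouse 1 they were 0.60 to 0.73, with adjusted p from 0.00139 to 0.00847, and all 4 were called. That mouse also had the lowest summed slow fibre markers of its group, 10606 against 12094 to 38247 in the other 4 and 41150 to 56580 in wild type. Null mouse 4 was close to it with 12094, and its mean log2 over these markers was lower (8.10 against 8.83 in null mouse 1). Null mouse 4 read 11.80 at 1451152_a_at, above every wild-type mouse. The part of fibre type in this result was not tested.

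Atp1b2, the beta subunit first known as an adhesion molecule of glia, was lower in the Clcn1-null mice and higher in both CUGexp lines at one of its probe sets. At 1435148_at it read 9.93, 10.04 and 10.76 in the Clcn1-null mice, against 12.60, 12.23 and 12.72 in BALB wild type. All null mice were below all wild-type mice, and the change was -2.28 (SE 0.26, adjusted p = 0.0115), or 4.85-fold lower. The second probe set, 1422009_at, read 7.75, 7.59 and 8.23 in the null mice and 8.55, 7.96 and 8.19 in wild type, with overlap, and changed by -0.37 (95% interval -0.94 to 0.19, adjusted p = 0.441). The 2 probe sets of the gene thus gave changes of unlike size. The first lost its call without BALB wild-type mouse 1 (adjusted p = 0.0754) or mouse 3 (adjusted p = 0.0742).

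In Line 20b the lowest, median and highest values of Atp1b2 at 1435148_at were 11.15, 11.32 and 11.48. In Line 41 they were 11.07, 11.28 and 11.63, and in wild type 10.38, 10.86 and 11.16. The 2 lines covered the same range, and 5 of 6 mice of each were above all wild-type mice. The change was 0.54 in Line 20b (SE 0.12, adjusted p = 0.00286) and 0.52 in Line 41 (SE 0.12, adjusted p = 0.00957), and the lines differed by 0.03 (95% interval -0.22 to 0.27). The lowest wild-type values were those of mice 1 and 2, at 10.38 and 10.56. Without those 2 mice the change was 0.38 in Line 20b (adjusted p = 0.0193) and 0.35 in Line 41 (adjusted p = 0.0570), so the second was no longer called. The other probe set was not called in Line 20b (0.24, adjusted p = 0.437) or in Line 41 (0.52, adjusted p = 0.0919).

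Atp1b2 in the Mbnl1-null mice read 11.23, 11.43, 11.36, 11.47 and 11.40 at 1435148_at, against 11.21, 11.06, 11.35, 11.28 and 11.12 in wild type. The null mice were higher in 4 of 5 cases than all wild-type mice, but the change of 0.17 (SE 0.08) did not pass (adjusted p = 0.156), nor did that of 0.23 at the second probe set (adjusted p = 0.259).

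**Figure D2:**
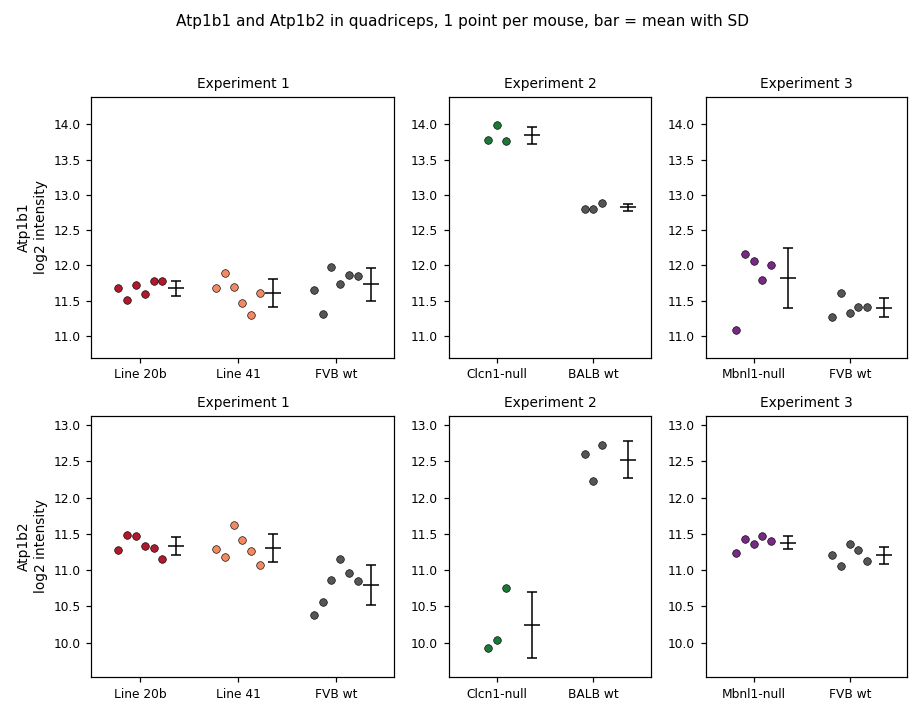
Log2 intensity of Atp1b1 (probe set 1451152_a_at, upper row) and Atp1b2 (probe set 1435148_at, lower row) in every mouse, by experiment, with mutant groups left of wild type and bars for the mean with SD. For each gene the probe set drawn is the one with the smallest limma p in the Clcn1-null comparison. In experiment 2 the Clcn1-null mice lie above BALB wild type for Atp1b1 (mean 13.84 against 12.82) and below it for Atp1b2 (mean 10.24 against 12.52).

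Markers of fibre type and of several other cell types also differed in these muscles. In the Clcn1-null mice the summed intensity of the 10 slow fibre markers was 51218 to 94043, against 94190 to 126560 in BALB wild type. Of these 10 genes, 7 had a probe set that fell, among them Myh7, the slow myosin heavy chain (-4.11, adjusted p = 0.0383), while Myoz2 (2.34, adjusted p = 0.0115) and Casq2 (2.02, adjusted p = 0.0308) rose. The summed adipocyte markers were 175320 to 200260 in the null mice and 87492 to 102790 in wild type, and 6 of 7 tested genes rose. The 9 macrophage and leukocyte markers summed to 15616 to 26030 in the null mice and 8459 to 11509 in wild type. Of the 7 tested, limma called 1 higher, Cd68, a macrophage lysosomal protein (3.25, SE 0.34, adjusted p = 0.00927), and 1 of the 9 was under an intensity of 32 in every null mouse, against 2 in every wild-type mouse. The 12 endothelial and mural markers summed to 66833 to 73023 in the null mice and 47193 to 54284 in wild type, with 1 of 12 called higher. The 9 nerve and Schwann cell markers summed to 22602 to 31267 in the null mice and 14104 to 21952 in wild type, with 1 of 6 tested called higher and 3 of the 9 under an intensity of 32 in every mouse of both groups. The 9 fibroblast and tendon markers summed to 47257 to 68884 in the null mice and 36877 to 46984 in wild type, where limma called 0 of 9 (4 at an unadjusted p under 0.05). The groups did not overlap in any of these sums, some by a narrow margin, while the blood and satellite cell sums overlapped. On the mean log2 of the same lists the groups overlapped for 2 of them. The endothelial and mural means were 10.86 to 11.29 in the null mice and 10.78 to 11.04 in wild type. Those of the nerve and Schwann cell markers were 8.36 to 8.51 in the null mice and 8.13 to 8.54 in wild type. Of all 25944 probe sets 1.78% were called higher and 2.54% lower in the Clcn1-null mice, and 4959 had an unadjusted p under 0.05. In bulk muscle a change in the share of cells or fibres and a change of RNA per fibre cannot be told apart. The part of these lists in the Atp1b1 and Atp1b2 values was not tested.

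Atp1b3, the third and broadly expressed beta subunit, was lower in Line 20b and moved little elsewhere. Its lowest, median and highest values were 12.61, 12.67 and 12.79 in Line 20b, 12.74, 12.99 and 13.12 in Line 41, and 12.77, 13.00 and 13.28 in wild type. In Line 20b 4 of 6 mice were below every wild-type mouse, with a change of -0.32 (SE 0.08, 1.25-fold lower, adjusted p = 0.0115). Without wild-type mice 1 and 2 it was -0.22 (adjusted p = 0.0811) and was not called. Line 41 was within the wild-type range apart from its lowest mouse (-0.04, adjusted p = 0.833), and the difference of Line 20b from Line 41 was -0.28 (SE 0.08, adjusted p = 0.0554).

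Atp1b3 in the Clcn1-null mice read 13.53, 13.44 and 13.09, against 13.12, 13.10 and 13.17 in BALB wild type. The groups overlapped through null mouse 3 (0.22, 95% interval -0.12 to 0.57, adjusted p = 0.449). In the Mbnl1-null mice it read 10.70, 10.73, 10.55, 10.45 and 10.54, against 10.54, 10.56, 10.63, 10.71 and 10.51 in wild type. The 95% interval of that difference was -0.17 to 0.17 (adjusted p = 0.991).

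Atp1b4, the nuclear membrane relative of the beta subunits, had the largest changes of the members in both CUGexp lines and in the Mbnl1-null mice, whereas in the Clcn1-null mice Atp1b2 changed more. Its lowest, median and highest values were 12.13, 12.39 and 13.61 in Line 20b, 9.48, 10.75 and 11.83 in Line 41, and 7.22, 8.38 and 10.50 in wild type. All 6 Line 20b mice were above every Line 41 and every wild-type mouse, and 4 of 6 Line 41 mice were above every wild-type mouse. Against wild type, Line 20b was higher by 3.86 (SE 0.49, adjusted p = 1.83e-05), or 14.5-fold, and Line 41 by 2.01 (SE 0.49, adjusted p = 0.0150), or 4.04-fold. The order of the 3 groups was thus Line 20b, Line 41 and wild type, and the direct difference between the lines was 1.84 (SE 0.49, adjusted p = 0.0307).

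The wild-type values of Atp1b4 were widely spread, with an SD of 1.29 over 6 mice, against 0.56 in Line 20b and 0.82 in Line 41. Mice 1 and 2 of the wild type read 7.22 and 7.98, and the other 4 read 10.50, 7.91, 8.79 and 9.99. Without mice 1 and 2 the change was 3.29 in Line 20b (adjusted p = 0.000179) and 1.45 in Line 41 (adjusted p = 0.0958), so Line 41 was no longer called. The call of the difference between the lines was lost without Line 20b mouse 3, 5 or 6 (adjusted p = 0.0740, 0.0551 and 0.0616) and without Line 41 mouse 1, 2 or 5 (adjusted p = 0.0802, 0.0706 and 0.0586). The adipocyte markers summed to 48980 to 63442 in Line 20b, 48896 to 103870 in Line 41 and 73299 to 166780 in wild type, and 1 of the 8 genes was under an intensity of 32 in every mouse of both lines. The 12 endothelial and mural markers summed to 39325 to 47880 in Line 20b, 32586 to 46090 in Line 41 and 49459 to 61968 in wild type. The 9 nerve and Schwann cell markers summed to 9270 to 12718 in Line 20b, 6800 to 14805 in Line 41 and 12684 to 18241 in wild type. Of the 6 tested, Mbp, a myelin protein, was lower in Line 20b at 6 probe sets (-1.03 to -0.48), and in Line 41 Mbp (-0.46) and Pmp22 (-0.42) were lower at 1 each. The macrophage and leukocyte markers summed to 8260 to 12211 in Line 20b, 10760 to 17080 in Line 41 and 7612 to 12444 in wild type, with Cd68 higher in Line 41 (1.46, adjusted p = 0.0271). The part of these lists in the Atp1b4 and Fxyd1 values was not tested.

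The 5 Mbnl1-null mice read 10.50, 11.64, 10.40, 11.05 and 10.34 for Atp1b4, against 7.81, 6.22, 7.79, 7.003 and 6.86 in FVB wild type. Every null mouse stood more than 2 log2 units above every wild-type mouse. The change was 3.65 (SE 0.34, adjusted p = 6.80e-05), or 12.5-fold. It was the only member probe set called in this comparison, and it stayed called without any one mouse. The slow fibre markers were lower in these null mice, at 10606 to 38247 summed against 41150 to 56580 in wild type, with 7 of 10 genes having a probe set that fell. Of their 19 probe sets 11 were called lower, beside 8.92% of all. The adipocyte markers were at 41968 to 44980 in the null mice and 41462 to 49610 in wild type. The macrophage and leukocyte markers summed to 4362 to 8581 in the null mice and 3026 to 5277 in wild type, with Cd68 higher (1.91, adjusted p = 0.00771). The part of these lists in the Atp1b4 values of the null mice was not tested.

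The Clcn1-null mice read 13.90, 13.84 and 12.92 for Atp1b4, against 12.08, 12.76 and 12.35 in BALB wild type. The groups did not overlap, but the change of 1.16 (SE 0.31) did not pass (adjusted p = 0.108). Without null mouse 3 it was 1.47 with adjusted p = 0.0214. Null mouse 3 was also the low one for Atp1b3 and for the Atp1b1 probe set 1439036_a_at. It was the high one for Fxyd1 (12.86) and for the Atp1b2 probe set 1435148_at (10.76). Its summed slow fibre markers were the lowest of its group, 51218 against 63700 and 94043 in the other 2. The part of fibre type in these values was not tested.

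**Figure D3:**
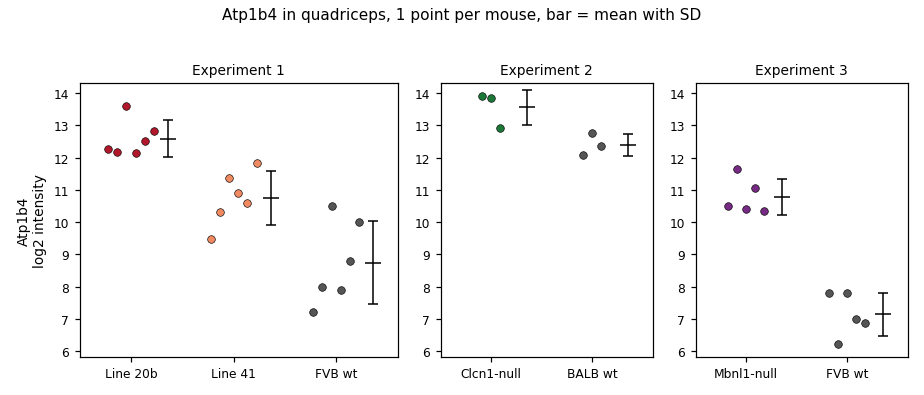
Log2 intensity of Atp1b4 in every mouse, by experiment, with mutant groups left of wild type and bars for the mean with SD. The 6 Line 20b mice (mean 12.59) lie above the 6 Line 41 mice (mean 10.75) and the 6 wild-type mice (mean 8.73), and the 5 Mbnl1-null mice (mean 10.78) above their wild type (mean 7.14).

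Fxyd1, also called phospholemman, slows the pump by lowering its affinity for sodium until it is phosphorylated, and it was higher in both CUGexp lines. Its lowest, median and highest values were 13.01, 13.11 and 13.20 in Line 20b, 12.82, 12.86 and 13.03 in Line 41, and 12.47, 12.59 and 12.67 in wild type. Every mouse of either line was above every wild-type mouse, and 5 of 6 Line 20b mice were above every Line 41 mouse. The changes were small and tight: 0.53 in Line 20b (SE 0.05, 1.44-fold, adjusted p = 6.61e-07) and 0.32 in Line 41 (SE 0.05, 1.25-fold, adjusted p = 0.000605). The order was again Line 20b, Line 41 and wild type, and the lines differed by 0.21 (SE 0.05, adjusted p = 0.0198), a call lost without Line 20b mouse 5 (adjusted p = 0.0522). Without wild-type mice 1 and 2 the changes were 0.51 in Line 20b (adjusted p = 1.44e-05) and 0.30 in Line 41 (adjusted p = 0.00560).

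In the Mbnl1-null mice Fxyd1 read 12.60, 12.73, 13.15, 12.98 and 13.32, against 12.57, 12.43, 12.39, 12.40 and 12.84 in FVB wild type. Null mice 3, 4 and 5 were above all wild-type mice, while null mice 1 and 2 fell among them. The change of 0.43 (SE 0.14) missed the threshold (adjusted p = 0.0555). It passed without wild-type mouse 5 (0.51, adjusted p = 0.0332), null mouse 1 (0.52, adjusted p = 0.0216) or null mouse 2 (0.49, adjusted p = 0.0455). In the Clcn1-null mice it read 12.28, 12.56 and 12.86, against 12.40, 12.30 and 12.56 in BALB wild type, with overlap (0.15, 95% interval -0.28 to 0.57, adjusted p = 0.670).

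**Figure D4:**
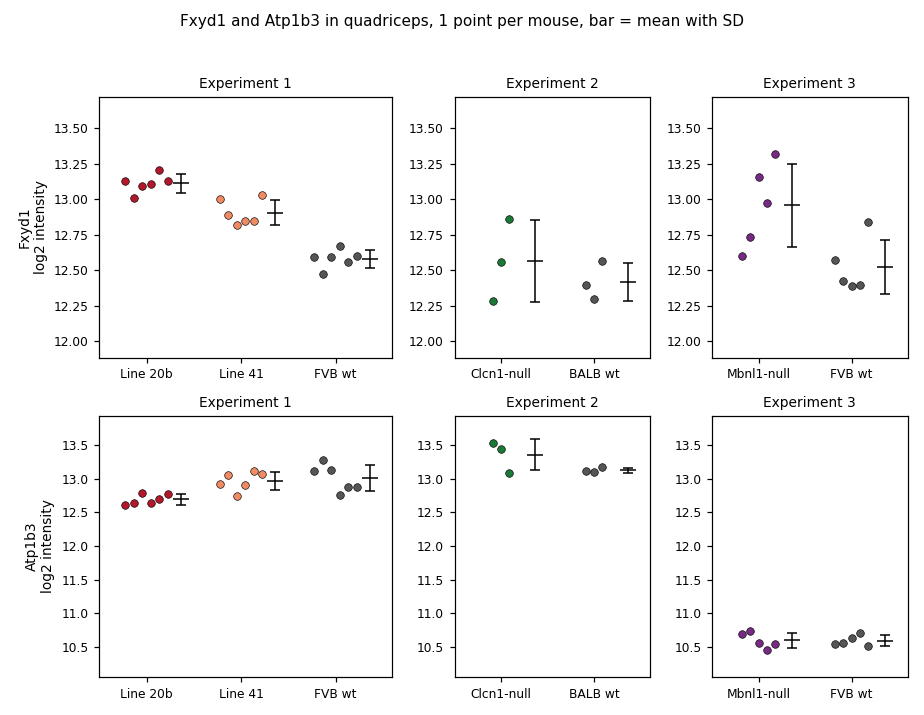
Log2 intensity of Fxyd1 (upper row) and Atp1b3 (lower row) in every mouse, by experiment, with mutant groups left of wild type and bars for the mean with SD. The Fxyd1 means were 13.11 in Line 20b, 12.90 in Line 41 and 12.58 in wild type, and the Atp1b3 mean was lower in Line 20b (12.69) than in wild type (13.01).

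Of 17 other pump subunits and relatives listed, 13 were analysed here and 11 were tested in experiment 1. In Line 20b limma called 0 of the 11 genes higher (0 at an unadjusted p under 0.05) and 1 lower, Nkain1, whose product binds Atp1b1 in mouse (-0.59, SE 0.13, adjusted p = 0.00280, and -0.44 at a second probe set, adjusted p = 0.0201). By probe set, 0 of 18 were called higher and 2 lower, beside 7.35% and 9.49% of all. The other tested Nkain1 probe sets changed by -0.13, 0.03 and -0.0019 in Line 20b and were not called. In Line 41 limma called 0 of the 11 (0 also at an unadjusted p under 0.05), and between the lines 0 of 11 (1 at an unadjusted p under 0.05). Of all probe sets 8.47% were called in Line 41 and 5.84% between the lines. At an unadjusted p under 0.05 there were 6126 and 5129 of all 27330. The same gene was the one that fell among 4 tested in the Mbnl1-null mice (-1.16, adjusted p = 0.00505, and -1.17, adjusted p = 0.00107). It was also lower in the Clcn1-null mice at 1 probe set (-3.33, SE 0.26, 10.1-fold lower, adjusted p = 0.00523). There -1.21 at the second probe set was not called, and the other tested Nkain1 probe sets changed by 0.01 and 0.03. In the same mice Fxyd6 (1.28, adjusted p = 0.0131) and Fxyd5 (0.77, adjusted p = 0.0371), further Fxyd regulators, were higher. By probe set, 2 of 14 were called higher and 1 lower in the Clcn1-null mice, beside 1.78% and 2.54% of all. In the Mbnl1-null mice 0 of 5 were called higher and 2 lower, beside 7.28% and 8.92% of all. The median log2 change of this list was 0.02 in Line 20b, 0.17 in Clcn1-null and -0.43 in Mbnl1-null mice, against -0.01, 0.03 and -0.02 over all tested probe sets.

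Among 18 other sodium channel genes, 15 were analysed here and few were bright enough to test: 4 in experiment 1, 9 in experiment 2 and 3 in experiment 3. Scn4b, an auxiliary beta subunit of voltage-gated channels, was lower in Line 20b (-0.36, SE 0.09, adjusted p = 0.00911) and in the Mbnl1-null mice (-0.58, SE 0.11, adjusted p = 0.00443). It changed by -0.08 in Line 41 and -0.65 in the Clcn1-null mice, neither of which passed. Scn3b, another auxiliary subunit, was higher in the Clcn1-null mice (2.63, SE 0.32, 6.21-fold, adjusted p = 0.0135). No other gene of the list was called in these comparisons with wild type, and in Line 41 limma called 0 of the 4 (0 also at an unadjusted p under 0.05). By probe set, 1 of 6 was called lower in Line 20b, beside 9.49% of all, and 0 of 6 in Line 41, beside 8.47%. In the Clcn1-null mice 1 of 11 was called higher, beside 1.78%, and in the Mbnl1-null mice 1 of 4 lower, beside 8.92%. The list's median was -0.41 for Line 20b, -0.19 for Line 41, 0.23 for Clcn1-null and -0.02 for Mbnl1-null mice.

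Of 25 listed exchangers and cotransporters that use the sodium gradient, 19 were tested in experiments 1 and 2 and 13 in experiment 3. In Line 20b 2 rose and 2 fell, and of their 39 probe sets 2 were called higher and 3 lower, beside 7.35% and 9.49% of all probe sets. Slc8a3, a sodium-calcium exchanger of skeletal muscle, was higher (0.39, adjusted p = 0.0459), as was the phosphate transporter Slc20a2 (0.30, adjusted p = 0.0187), and the sodium-proton exchanger Slc9a2 (-0.65, adjusted p = 0.00968) and the bicarbonate cotransporter Slc4a4 (-0.40, adjusted p = 0.0172) were lower. The other probe sets of Slc8a3 (0.37, adjusted p = 0.222) and Slc20a2 (0.02, adjusted p = 0.879) were not called. Slc4a4 was also called at 1452071_at (-0.38), while its other probe sets changed by -0.17 and -0.16 without a call. In Line 41 limma called 0 of the 19 (5 at an unadjusted p under 0.05). Of all 27330 probe sets 8.47% were called there, and 6126 had an unadjusted p under 0.05. Between the lines Slc20a2 was higher in Line 20b (0.32, adjusted p = 0.0292), and Slc12a2, the sodium-potassium-chloride cotransporter (-0.65, adjusted p = 0.00916), and Slc4a4 (-0.42, adjusted p = 0.0300) were lower. There the other Slc20a2 probe set differed by -0.06 and the other Slc12a2 probe sets by -0.29 and -0.43, without a call. Slc4a4 was called at 1452071_at too (-0.31), and its other probe sets differed by -0.29 and -0.25 without a call. Of the 39 probe sets 1 was called higher and 3 lower between the lines, beside 2.58% and 3.26% of all. In the Mbnl1-null mice 1 rose and 3 fell, with 2 of 22 probe sets called higher and 3 lower, beside 7.28% and 8.92% of all. Slc8a3 was higher at both probe sets (1.61, adjusted p = 0.0229, and 1.05, adjusted p = 0.00434), and Slc20a1 (-0.93), Slc9a2 (-0.64) and the creatine transporter Slc6a8 (-0.52) were lower. The other Slc6a8 probe set changed by -0.28 without a call (adjusted p = 0.182). The Clcn1-null mice had 1 that fell, Slc20a1 (-0.92, adjusted p = 0.0145), with 1 of 31 probe sets called lower beside 2.54% of all. The list's median was -0.09 for Line 20b, 0.04 for Line 41, -0.13 for Mbnl1-null and 0.04 for Clcn1-null mice.

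Of 21 genes tested whose proteins anchor or regulate the channel and the pump, 7 had a probe set that rose and 4 one that fell in Line 20b, and 4 rose and 1 fell in Line 41. In Line 20b 15 of their 53 probe sets were called higher and 6 lower, beside 7.35% and 9.49% of all probe sets. In Line 41 6 of the 53 were called higher and 1 lower, beside 3.88% and 4.59% of all. Sntb1, a syntrophin of the dystrophin complex to which Scn4a binds, was higher in Line 20b by 3.33 at 1436203_a_at (SE 0.60, adjusted p = 0.000801), where Line 41 changed by 1.48 without a call (adjusted p = 0.151). At 1436204_at it was higher by 2.22 in Line 20b (SE 0.27, adjusted p = 1.40e-05) and by 1.08 in Line 41 (SE 0.27, adjusted p = 0.0173), the one probe set of 5 called in Line 41. Camk2d, a calcium-dependent kinase, rose by 1.76 in Line 20b (SE 0.11) and 1.24 in Line 41 (SE 0.11), and the membrane anchor Ank3 by 0.95 in Line 20b (SE 0.10) and 1.05 in Line 41 (SE 0.10) at 1425202_a_at. Ppp1r1a, a phosphatase inhibitor, fell by 0.75 in Line 20b and by 0.51 in Line 41. The other genes with a probe set that fell in Line 20b were Nedd4l (-0.64), Ank1 (-0.39) and Dlg1 (-0.28), and the other that rose in Line 41 was Nedd4 (0.28), of which Ank1, Dlg1 and Nedd4 are named after their values were seen. Nedd4l fell at 1441305_at alone, and its other tested probe sets changed by 0.16, 0.17, -0.05 and 0.37 in Line 20b without a call. Directly between the lines Sntb1 (1.54 at 1438288_x_at, adjusted p = 0.0119), Ank3 (0.56 at 1452124_at, adjusted p = 0.000264), Camk2d (0.54, adjusted p = 0.0166) and Cav3, the muscle caveolin (0.45, adjusted p = 0.0289), were higher in Line 20b, and Nedd4, a ubiquitin ligase, was lower (-0.38, adjusted p = 0.00310). The Ank3 probe sets disagreed in this comparison, since 1425202_a_at differed by -0.09 (adjusted p = 0.707), and at 1452124_at Line 41 did not pass against wild type (0.23, adjusted p = 0.0615). For Sntb1 the lines differed by 1.85 at 1436203_a_at without a call (adjusted p = 0.0826).

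In the Mbnl1-null mice 8 of 41 probe sets of that list were called higher and 6 lower, beside 7.28% and 8.92% of all. Of 18 tested genes 3 rose, namely Sntb1 (3.47, SE 0.44, 11.1-fold), Camk2d (1.04, SE 0.17) and Ank3 (0.66, SE 0.11), and 4 fell, with Nedd4l, a ubiquitin ligase that acts on sodium channels, lowest (-1.21, SE 0.33, adjusted p = 0.0282), followed by Dlg1 (-0.41), Ank1 (-0.41) and Wwp1 (-0.34), these last named after their values were seen. In the Clcn1-null mice limma called 0 of 21 higher (5 at an unadjusted p under 0.05) and 2 lower, with 3 of 52 probe sets called lower beside 2.54% of all: Ank1, a small form of which anchors the reticulum in muscle (-1.61, adjusted p = 0.0341), and Wwp1, a ubiquitin ligase (-0.74, adjusted p = 0.0240). Of all 25944 probe sets 4959 had an unadjusted p under 0.05 there, in either direction. Probe sets of these genes did not all move: 1451938_a_at of Sntb1 changed by 0.12 in Line 20b and 0.48 in the Mbnl1-null mice without a call, and 1460630_at of Camk2d by -0.20 in both. At 1423269_a_at Nedd4l changed by -0.35 in the Mbnl1-null mice without a call. The list's median was 0.12 for Line 20b, 0.07 for Line 41, -0.03 for Mbnl1-null and -0.03 for Clcn1-null mice.

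The genes whose values lay closest to each member over all 34 mice were found from the root mean square distance, on the log2 scale, of each mouse's value from the wild-type mean of its experiment. For Atp1b4 they were Eda2r, a receptor of the tumour necrosis factor family (distance 0.81), Mustn1, a small nuclear protein of muscle and bone (0.81), and Plekho1 (0.87), against a median distance of 2.48 over 13921 probe sets. Eda2r differed by 3.28 in Line 20b, 2.36 in Line 41 and 3.96 in Mbnl1-null mice but by -0.19 in Clcn1-null mice, and Mustn1 by 2.88 in Line 20b, 2.52 in Line 41, 2.61 in Mbnl1-null and 1.86 in Clcn1-null mice. For Atp1b2 they were the kinase Map2k6 (0.29), Tspan8 (0.35) and Rragd (0.37), whose values in Clcn1-null mice differed from wild type by -2.38, -2.21 and -1.70. For Fxyd1 they were the ubiquitin ligase Rnf123 (0.12), the mitochondrial calcium uniporter subunit Smdt1 (0.14) and the sarcoglycan Sgca (0.14), and for Atp1b1 Txnl1 (0.28), Ext1 (0.29) and Vegfb (0.31). The Atp1b1 distances are those to its brightest probe set, 1439036_a_at, which was not called in the Clcn1-null mice. For Atp1b3 they were Cavin1 (0.14), Sod1 (0.14) and Slc25a46 (0.15). The points share mice and arrays, and the genes were picked for their likeness, so the distances are a description without a test.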

How the data were processed

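Quadriceps RNA of 34 male mice was measured on 58 arrays, a pair (430A and 430B) per mouse in experiments 1 and 2 and 1 array with both contents in experiment 3. Per the submitters' processing notes, the authors derived the deposited linear intensity of each probe set with GCRMA, whose version is not given in the sources used here. GCRMA subtracts a background modelled from probe sequence, which can alter differences of dim probes. The number of arrays limits the precision.

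After a log2 transform, a probe set was tested in an experiment if at least n arrays were at 5 or more (intensity 32), with n the size of the smallest group. The models were linear, per array type and experiment, with 1 mean per group (limma 3.58.1, R 4.3.3, moderated by eBayes with an intensity trend). Tests were two-sided and Benjamini-Hochberg adjusted over all probe sets of the experiment, and the 3 groups of experiment 1 shared one estimate of the spread. The code was tested on simulated data. Probe sets with several symbols (932) or without an entry (9160) were not named. No 2 arrays held identical values.

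The named genes were all member probe sets, up to 4 called genes per list and comparison with the largest change, the 3 genes closest to each member, and Clcn1 and Mbnl1. Members and lists were chosen with earlier results of these data known. The labels do not say that replicate numbers pair mice. The correlation of deviations between same-numbered mice ran from -0.16 to 0.28 for Line 20b, -0.07 to 0.36 for Line 41, -0.03 to 0.13 between the lines, -0.11 to 0.03 for Clcn1-null and 0.02 to 0.40 for Mbnl1-null mice. Since no comparison had every pair over 0.1, the numbers were not treated as pairs. In the Mbnl1-null comparison all but that of mouse 3 were over 0.1 (0.112, 0.103, 0.023, 0.241 and 0.399 in order of number). Whether those mice were paired is not known. Alternatives were quantile normalization, shifting medians, dropping the filter or raising it to log2 7, only the brightest probe set of a gene, eBayes without trend, a replicate block, each mouse left out, and wild-type mice 1 and 2 of experiment 1 left out.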

Additional observations from a re-analysis of the deposited data

Results flagged for a closer look

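Within groups of 5 or 6 mice, 2 of 50 groups had a mouse far from the others, where chance gives about 1 in 20. Line 20b mouse 1 read 2.88 at the Atp1b1 probe set 1455949_at, against 2.64 to 2.70 in the other 5, all of them below an intensity of 32. Mbnl1-null mouse 1 read 11.39 at the Atp1b1 probe set 1423890_x_at, against 12.22 to 12.47 in the other 4.

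The direct test between the transgenic lines passed for Atp1b4, higher by 1.84 in Line 20b than in Line 41 (limma, adjusted p = 0.0307, 6 of 6 Line 20b mice above all Line 41 mice), and for Fxyd1, higher by 0.21 (adjusted p = 0.0198, 5 of 6 mice above).

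Atp1b2 changed in opposite directions in different experiments. At 1435148_at every mutant mouse lay on one side of its wild-type mean, above it in both lines and the Mbnl1-null mice and below it in the Clcn1-null mice, and the gene changed by 0.54 in Line 20b and 0.52 in Line 41, by 0.17 in Mbnl1-null mice, where it was not called, and by -2.28 in Clcn1-null mice. At 1422009_at it changed by 0.24 in Line 20b, 0.52 in Line 41 and -0.37 in Clcn1-null mice, none of them called, again with every mouse of these 3 groups on one side of its wild-type mean. Without wild-type mice 1 and 2 the Line 20b change there was -0.0074, so its direction rests on those 2 mice. The differences between experiments were not tested, because levels are not compared across experiments.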

How the results depend on the processing

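Counts of called member probe sets moved by more than 1.5 times as follows. In Clcn1-null mice the count of 4 became 1 with the brightest probe set of a gene, where fewer probe sets are tested, and 1 with a replicate block, and ran from 0 to 6 without each replicate. Of all probe sets 4.32% were called there in the main setting, 5.8% with the brightest and 0.937% with a replicate block. Without each replicate that share ran from 0.179% to 8.98%. In Mbnl1-null mice the count of 1 became 3 with quantile normalization, 3 with a filter at log2 7 and 4 with a replicate block, and ran from 1 to 6 without each replicate. Of all probe sets 16.2% were called there in the main setting. That share was 19.3% with quantile normalization, 20.3% at log2 7 and 20.4% with a replicate block, and 11.2% to 16.8% without each replicate. Between the lines the count of 2 became 1 without a filter and ran from 0 to 3 without each replicate. The share of all probe sets there was 5.84% in the main setting, 2.74% without a filter and 4% to 7.26% without each replicate. In Line 41 the count of 3 became 1 without wild-type mice 1 and 2 and ran from 3 to 4, and in Line 20b the count of 4 stayed at 4 without each replicate. For Line 41 the share of all probe sets was 8.47% in the main setting, 5.2% without those 2 mice and 6.1% to 8.46% without each replicate. For Line 20b it was 16.8% in the main setting and 14.5% to 16.4% without each replicate. The cause was not tested.

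Signs that turned belonged to small values that were never called. Atp1b1 at 1418453_a_at in Line 20b was 0.0021 with a median shift and -0.1755 to 0.0395 without each replicate, and in Line 41 it was -0.13 without wild-type mice 1 and 2 and -0.0371 to 0.1779. Atp1b1 at 1439036_a_at was 0.0026 between the lines with a median shift and -0.1166 to 0.0890, and in Line 41 -0.2574 to 0.0033. Atp1b2 was -0.0074 at 1422009_at in Line 20b without wild-type mice 1 and 2, and -0.0214 to 0.0896 at 1435148_at between the lines. Atp1b3 in Line 41 was 0.0545 without wild-type mice 1 and 2 and -0.0898 to 0.0135, and in Mbnl1-null mice -0.0328 to 0.0376.

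Replicate numbers were not treated as pairs. In experiment 2 the replicate block raised the adjusted p of the 3 called Atp1b1 probe sets to 0.0609, 0.0864 and 0.0955. In Mbnl1-null mice it gave Fxyd1 an adjusted p of 0.0240 and Atp1b1 0.0250 and 0.0144. A mouse matched its own number best in 1 of 6, 1 of 6, 3 of 6, 1 of 3 and 2 of 5 pairs.

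Over all probe sets, the Clcn1-null count of 1120 was 650 without a filter, 243 with a replicate block and 47 to 2340 without each mouse, and the lowest was without BALB wild-type mouse 1. The Mbnl1-null count of 2628 was 1502 with a median shift, 1727 without a filter and 1462 with the brightest probe sets. The brightest probe sets gave 2563 of 4603 in Line 20b, 1223 of 2315 in Line 41 and 753 of 1596 between the lines. Line 41 gave 1433 without wild-type mice 1 and 2. Experiment 2, with 3 mice a group, limits what can be called there, and probe sets near an intensity of 32 have no reliable level.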
